A study of Mus musculus with 6 samples.

Results

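Natural killer (NK) cells kill infected and transformed cells by releasing lytic granules. This is a description of chromatin accessibility at 8 genes tied to that granule machinery by function or by position. They are Prf1, the granzyme genes Gzma, Gzmb, Gzmc, Gzmk and Gzmm, and the granzyme inhibitor gene Serpinb9. The last is Cma1, a mast cell chymase gene at one end of the granzyme B cluster. The members were the accessible regions (peaks) of the deposited ATAC-seq table whose nearest gene was one of these 8 and whose distance to its start site was at most 150 kb. There were 34 such peaks of 51775 in the table, at all 8 genes, and the farthest lay 41.9 kb from its start site. Peaks are tied to genes here by distance alone, and expression was not measured.

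The study compared NK cells of wildtype and Rroid-deficient mice on the C57BL6 background, with 3 libraries per genotype. Rroid is a noncoding locus in the neighbourhood of Id2, whose product is needed for NK cell development. Cells were sorted from spleen by surface markers, positive for NK1.1 and NKp46 and negative for CD3 and CD5, and 50000 cells of a genotype went into transposition. The labels give no treatment, age, sex, design of the Rroid allele or pooling of animals, and nothing in them ties single libraries to single mice. The p-values therefore measure the spread between libraries, which may be technical. In sorted populations of this kind, fewer cells with an open site and a site less open in each cell cannot be told apart.

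Perforin, encoded by Prf1, forms pores that let granzymes into the target cell. Granzymes are serine proteases: granzyme B cleaves caspases and the death protein Bid, granzyme A is a tryptase, and granzyme M cleaves after methionine or leucine. Serpinb9 encodes a serpin that inhibits granzyme B and protects the killer cell from its own protease. Resting mouse NK cells hold much Gzma, Gzmb and Prf1 transcript, and translation of Gzmb and Prf1 rises with activation. Gzmk is known from less mature NK cells and from memory T cells, and Gzmc from strongly activated cells. The genes sit in separate clusters: in the table's mm9 coordinates, the start sites of Gzma and Gzmk lie 79.9 kb apart on chromosome 13, those of Gzmb and Gzmc 27.6 kb apart on chromosome 14, and that of Cma1 317.6 kb from Gzmb.

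RefSeq promoter windows (build GRCm38.p6) were matched by symbol for all 8 genes, and in mm9 the peak nearest to the start site covered the 250 bases upstream of the start at all 8. The 4 sequences below are those 250 bases, 5′ to 3′ on the gene's strand, ending at the base before the start. Gzma, Gzmb and Prf1 are shown as genes whose start-site peaks fell in Rroid-deficient cells, and Gzmm because its start-site peak was the one that rose. The start-site peaks of Serpinb9 and Cma1 fell as well, and their windows are not shown. For Gzmm, which has 2 windows, the upstream one is shown. Capitals mark matches on either strand to any of 7 motifs: T-box GGTGTGA, RUNX TGTGGTT, ETS GGAAGTG, E box CANNTG, AP-1 TGANTCA, STAT TTCNNNGAA, and TCF and LEF CTTTGAT. No 2 matches overlapped in these windows.
Gzma, chr13:113100982-113101231, minus strand: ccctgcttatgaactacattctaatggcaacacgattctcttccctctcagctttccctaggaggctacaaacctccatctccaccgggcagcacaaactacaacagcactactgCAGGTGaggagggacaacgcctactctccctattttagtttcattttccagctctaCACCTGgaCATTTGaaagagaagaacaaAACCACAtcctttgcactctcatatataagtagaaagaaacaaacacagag
Gzmb, chr14:56262335-56262584, minus strand: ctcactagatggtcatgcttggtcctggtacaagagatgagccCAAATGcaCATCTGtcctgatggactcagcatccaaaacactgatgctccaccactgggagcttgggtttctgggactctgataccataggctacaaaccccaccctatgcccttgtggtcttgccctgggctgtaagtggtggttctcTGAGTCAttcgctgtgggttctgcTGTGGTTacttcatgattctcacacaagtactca
Prf1, chr10:61297586-61297835, plus strand: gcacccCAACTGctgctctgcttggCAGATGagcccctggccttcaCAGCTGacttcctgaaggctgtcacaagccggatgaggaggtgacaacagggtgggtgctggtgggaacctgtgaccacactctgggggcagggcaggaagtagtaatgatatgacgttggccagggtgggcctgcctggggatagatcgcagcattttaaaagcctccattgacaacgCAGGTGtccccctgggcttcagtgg
Gzmm, chr10:79688770-79689019, plus strand: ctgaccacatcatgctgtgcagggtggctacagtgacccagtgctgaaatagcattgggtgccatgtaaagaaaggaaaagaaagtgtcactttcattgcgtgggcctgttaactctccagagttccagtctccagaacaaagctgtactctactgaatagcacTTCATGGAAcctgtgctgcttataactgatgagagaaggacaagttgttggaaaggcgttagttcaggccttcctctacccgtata

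A match is a run of letters and not a known binding site. The Gzma window held 3 E boxes, which begin 135, 79 and 71 bases upstream of the start, and a RUNX match 51 bases upstream. In the Gzmb window there were 2 E boxes, at 207 and 199 bases, an AP-1 match at 58 bases and a RUNX match at 34 bases. Prf1 had 4 E boxes, at 244, 225, 204 and 25 bases, and no match to the other motifs. Gzmm had 1 STAT match at 86 bases and was the only one of the 8 windows without an E box. Across the 8 members the E box was found in 7 windows and in 66.2% of all 32851 RefSeq promoter windows of that length. RUNX matched in 3 of the 8 (Gzma, Gzmb and Gzmc) and in 4.4% of all windows, T-box in 1 (Gzmk) and 3.3%, AP-1 in 1 and 6.7%, and STAT in 1 and 7.0%. The ETS and the TCF and LEF letters were in none of the 8 windows, against 8.6% and 3.2% of all.

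Values below are normalized reads per peak as the authors scaled them. They were whole multiples of 1 step per library, taken as 1 read, which gives 27572006 to 47939665 reads in peaks per library. The 34 peaks held 51 to 2764 reads in their lowest library. The sorted cells were checked on the peak nearest to the start site of each marker gene, which for Cd3d, Cd3e, Cd8a, Csf1r and Adgre1 lies some kb from the start. Of 39 peaks of NK markers 15 fell and 3 rose (38.5% and 7.69%), against 12.1% and 13.8% of all peaks. In the upper part of all peaks by mean value, where 33 of the 39 lie, 17.7% fell and 13.2% rose. The 5 nearest peaks (Ncr1, Klrb1c, Klrk1, Eomes and Tbx21) held 1489.0 to 4773.0 in wildtype cells. They summed to 12639.1 to 14924.2 in wildtype and 11154.0 to 13737.3 in Rroid-deficient libraries. Klrb1c and Tbx21 were called lower (81.0% and 78.6% of wildtype). Ncr1, Eomes and Klrk1 had no call (84.6%, 84.8% and 116.2%). Of 4 peaks of B cell markers 0 fell and 1 rose (25.0%), and all 4 had a positive log2 fold change, Rroid deficient over wildtype. Cd79b held 55.9 ± 9.4 in wildtype and 77.1 ± 15.5 in Rroid-deficient libraries at its start-site peak, without a call. Ms4a1, Cd79a and Pax5 had no peak. T cell markers summed to 3808.3 to 4779.6 and 3255.6 to 4236.1, nearly all of it at Cd3d. Of their 9 peaks 3 rose and 1 fell (33.3% and 11.1%). The Cd3d peak was the 1 that fell, to 79.8% of wildtype. The Cd3g promoter rose from 58.7 ± 5.8 to 352.8 ± 33.5, and the Cd5 promoter was also called higher, with overlapping groups. The nearest peaks of Cd3e and Cd8a had no call, and Cd4 had no peak. Myeloid markers summed to 1020.4 to 1101.4 and 854.8 to 933.6, with 0 called peaks of 5, and Lyz2 had no peak. The part of these marker changes in the results below was not tested.

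Accessibility at the member peaks was mostly lower in Rroid-deficient cells. Of the 34 peaks, 18 fell and 2 rose, and 14 had no call (limma, Benjamini-Hochberg adjusted p under 0.05 over all peaks). Across all 51775 peaks 12.1% of peaks fell and 13.8% rose, against 52.9% and 5.88% of the members. The median log2 fold change, Rroid deficient over wildtype, was -0.40 for the members and -0.01 for all peaks, and the members ranged from -1.27 at Gzma to 1.32 at Prf1. All 3 Rroid-deficient libraries lay below all 3 wildtype libraries at 23 member peaks and above them at 3, where the shares over the table were 20.1% and 20.0%. Member peaks were tall, with 27 in the upper part of all peaks by mean value. Of these 27, 16 fell and 2 rose, and in that upper part 17.7% fell and 13.2% rose. With libraries 4 and 6 left out, the shallowest ones, 1 Rroid-deficient library remained. The median log2 fold change was then -0.31 for the members and -0.02 for all peaks.

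**Figure D1:**
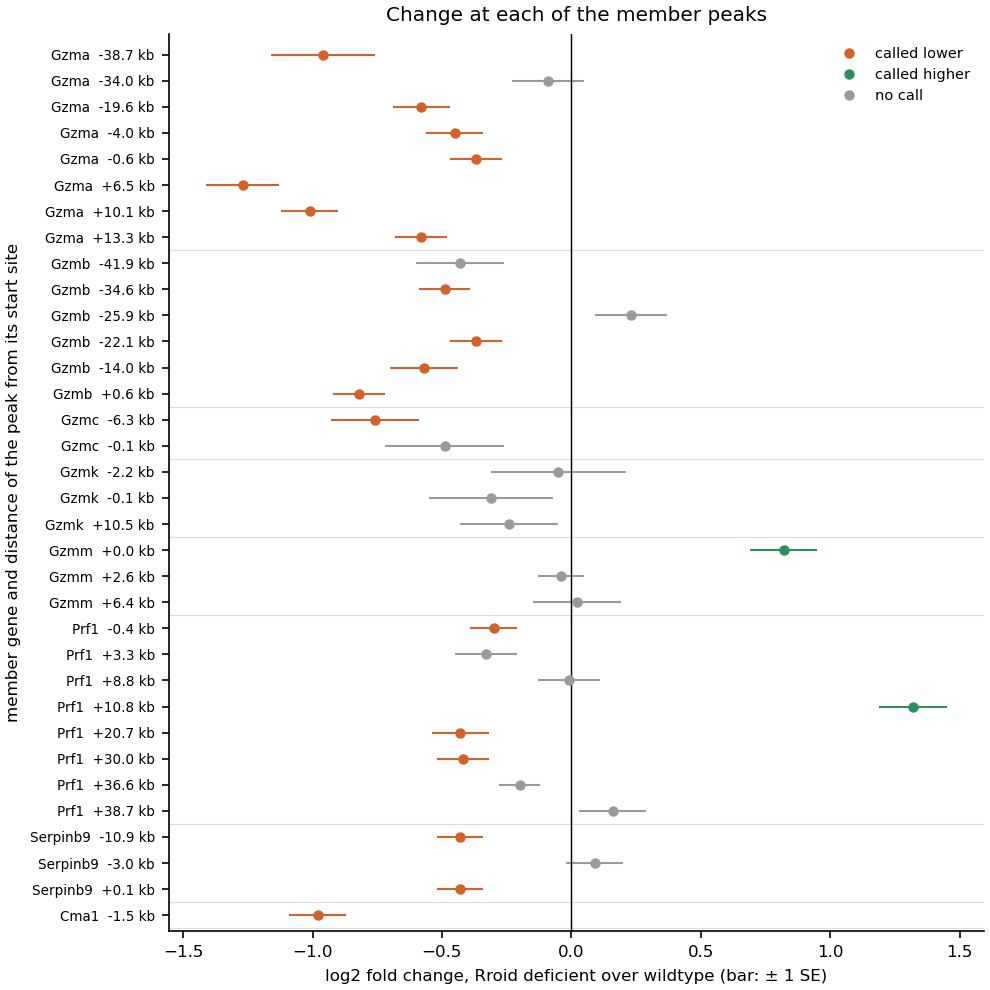
Log2 fold change at each of the 34 member peaks (points) with 1 standard error (bars), ordered by gene and by distance from the start site in kb. The 18 peaks called lower lie between -1.27 and -0.30, and the 2 called higher are the Gzmm peak at its start (0.82) and the Prf1 peak 10.8 kb downstream (1.32).

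**Figure D2:**
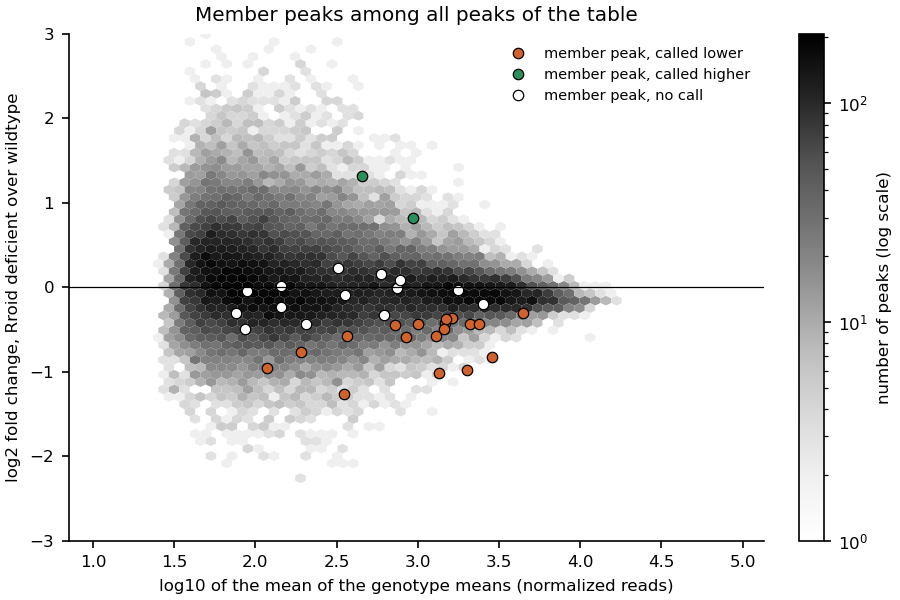
Log2 fold change (vertical) against the log10 mean value (horizontal) for all peaks of the table, in hexagons shaded by the number of peaks, with the 34 member peaks as circles; 54 peaks beyond 3 on the vertical axis are not drawn. Of the member circles 27 belong to the upper part of all peaks by mean value, and 28 of 34 lie below 0 (25 when libraries are scaled to their total).

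Prf1 had the tallest peak of the 8 genes at its start site and a mixed pattern behind it. The start-site peak (chromosome 10, 60759463 to 60760929, annotated as promoter) held 4552.8, 5366.8 and 4794.8 normalized reads in wildtype libraries 1 to 3, against 3665.4, 4255.1 and 4005.4 in libraries 4 to 6 from Rroid-deficient cells. All 3 Rroid-deficient values lay below the wildtype ones. Per kb of peak the wildtype level was 3341.2, which stood at the 98.5th percentile of all peaks. It fell to 81.0% of wildtype (log2 fold change -0.30, SE 0.09, adjusted p = 0.0147). That call was lost when wildtype library 2 (adjusted p = 0.0867), library 4 (0.0745) or library 6 (0.0594) was left out.

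A small intergenic peak 10.8 kb downstream of the Prf1 start (60770957 to 60771743) went the other way. It held 235.1, 270.5 and 274.5 in wildtype libraries, against 665.7, 702.5 and 587.6 in Rroid-deficient ones, without overlap. It rose 2.51-fold, from 260.0 ± 21.7 to 651.9 ± 58.7 (SD, n = 3; log2 fold change 1.32, SE 0.13, adjusted p = 1.35e-06). The peak next to it on the side of the gene, 8.8 kb downstream, held 743.3 ± 72.8 and 740.8 ± 82.1 with overlapping groups. On the far side, the peaks 20.7 kb (60780147 to 60782515) and 30.0 kb (60789694 to 60791378) downstream fell to 74.1% and 74.7% of wildtype (adjusted p = 0.00731 and 0.00444). The first of them went from 1105.9, 1257.7 and 1069.5 to 755.9, 909.1 and 880.2, and its call was lost without wildtype library 2 (adjusted p = 0.0516). The second went from 1664.2, 1825.6 and 1589.2 to 1144.4, 1361.3 and 1290.0, again without overlap, and lies in an intron of Pald1, the next gene.

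Whether a peak moved differently from the rest of its gene was tested directly, on its log2 value minus the mean of the gene's other peaks. Of all peaks tested this way 12.8% were lower and 11.0% higher than their gene's other peaks by this test, and of the 33 members that could be tested 8 were lower and 6 higher. These values are linked, since a peak that moves far shifts the reference of its neighbours. At Prf1 the peak 10.8 kb downstream stood 1.54 above the others on the log2 scale (SE 0.13, adjusted p = 3.44e-05), the largest such difference among the 33, and it kept the call with any single library left out. Those 20.7 and 30.0 kb downstream stood 0.46 and 0.45 below (log2 differences of -0.46 and -0.45, adjusted p = 0.00858 and 0.00905), also with any library left out. The start-site peak (-0.32, adjusted p = 0.0433) and the intronic peak 3.3 kb downstream (-0.35, adjusted p = 0.0361) were called too, but the first lost the call with each of the 6 libraries in turn (0.0517 to 0.123) and the second with 5 of them (0.0504 to 0.148). Among the remaining peaks of Prf1, that 3.3 kb downstream held 693.7 ± 92.8 and 549.3 ± 45.5 (adjusted p = 0.0585 in the plain comparison, and 0.0348 and 0.0395 when wildtype library 1 or library 5 was left out). Those 36.6 and 38.7 kb downstream, also in the Pald1 intron, held 2703.8 ± 177.5 and 2351.8 ± 56.3, and 559.7 ± 77.7 and 626.3 ± 87.4, in wildtype and Rroid-deficient cells (adjusted p = 0.0907 and 0.409).

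**Figure D3:**
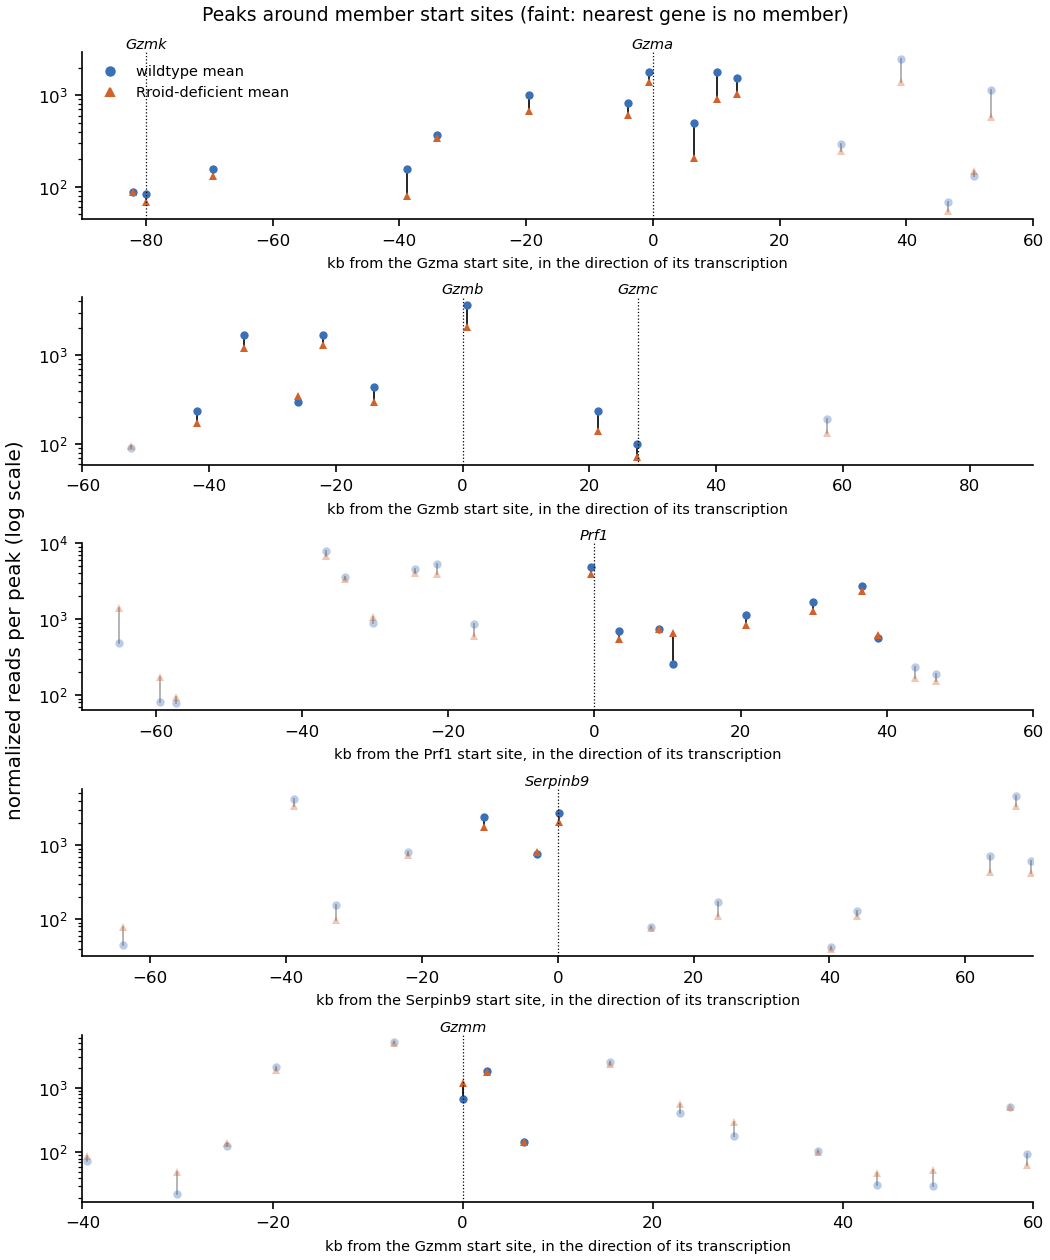
Mean normalized reads of wildtype (circles) and Rroid-deficient (triangles) libraries at each peak, joined by a line, on a log scale against the distance in kb from the start site of Gzma, Gzmb, Prf1, Serpinb9 and Gzmm. Faint symbols are peaks whose nearest gene is no member, and the Cma1 peak lies outside these windows. At Gzma 7 of 8 member peaks fell, and at Prf1 the peak 10.8 kb downstream has its triangle above its circle.

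Gzma had the most falling peaks of the 8 genes. Of its 8 peaks 7 fell and 0 rose, and the 7 lay between 13.3 kb downstream and 38.7 kb upstream of the start. Among the 1180 genes with 8 or more peaks, 6 had at least this share of falling peaks, Gzma included. The deepest change was in the last intron, 6.5 kb downstream (chromosome 13, 113884339 to 113885019), with 449.7, 531.8 and 500.1 in wildtype libraries, against 185.7, 206.6 and 221.2 in Rroid-deficient ones. Groups were far apart there, and the peak fell to 41.4% of wildtype (log2 fold change -1.27, SE 0.14, adjusted p = 4.41e-06). The peak 10.1 kb downstream (113880540 to 113881546), past the gene in an intron of Cdc20b, went from 1864.6, 1828.1 and 1735.7 to 741.3, 993.8 and 979.3. It fell from a mean of 1809.5 ± 66.5 to 904.8 ± 141.8 (log2 fold change -1.01, SE 0.11, adjusted p = 5.34e-06). A low peak 38.7 kb upstream (113929539 to 113930314) fell by a similar proportion, from 155.3 ± 19.6 to 79.0 ± 3.1 (50.8%, adjusted p = 0.00164).

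The promoter itself changed least among the 7 Gzma peaks that fell. It (113890834 to 113892650) held 1717.7, 1832.3 and 1893.9 in wildtype libraries, against 1299.6, 1558.3 and 1372.2 in Rroid-deficient ones, 77.7% of wildtype (log2 fold change -0.37, SE 0.10, adjusted p = 0.00931). Without library 6 the adjusted p was 0.0526. Between these extremes, the peaks 13.3 kb downstream, 4.0 kb upstream and 19.6 kb upstream fell to 66.9%, 73.3% and 66.8% of wildtype (adjusted p = 5.79e-04, 0.00537 and 9.73e-04). The peak 34.0 kb upstream had no call, with 387.3, 418.4 and 298.9 against 348.8, 329.4 and 350.6, and the groups overlapped. Set against the other Gzma peaks, the intronic peak 6.5 kb downstream stood lower (log2 difference -0.69, SE 0.13, adjusted p = 0.00291) and the peak 34.0 kb upstream stood higher (0.66, SE 0.15, adjusted p = 0.00892), with any single library left out as well. The peak 10.1 kb downstream (-0.40, adjusted p = 0.0272) lost this call when any 1 of the 3 wildtype libraries (0.0663 to 0.0745) or library 4 (0.0981) was left out. The promoter stood higher (0.34, adjusted p = 0.0437) but lost the call with each library in turn (0.0583 to 0.138).

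At Gzmk, the neighbour of Gzma, accessibility was low and no change was called. Its promoter peak (113970827 to 113971500) held 100.6, 75.6 and 77.2 in wildtype libraries, against 74.3, 55.2 and 75.0 in Rroid-deficient ones (log2 fold change -0.31, SE 0.24, adjusted p = 0.377). The groups did not overlap, by a narrow margin. Per kb this promoter stood at the 35.9th percentile of all peaks, where the Gzma promoter stood at the 84.0th. The peaks 10.5 kb downstream and 2.2 kb upstream held 155.9 ± 29.7 and 130.9 ± 11.4, and 88.8 ± 17.0 and 88.2 ± 31.4 (adjusted p = 0.386 and 0.912). These 3 peaks held 56 to 98 reads in their lowest library, and the standard errors of their log2 fold changes were 0.19 to 0.26, where that of the Gzma promoter was 0.10.

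Gzmb fell at its start and at most of its upstream peaks. The peak over the start (chromosome 14, 56879264 to 56881673, centred in the first intron) held 3325.8, 4076.4 and 3534.8 in wildtype libraries, against 1790.3, 2204.7 and 2201.6 in Rroid-deficient ones. There was a wide gap between the groups, and the peak fell to 56.7% of wildtype (log2 fold change -0.82, SE 0.10, adjusted p = 1.44e-05). Upstream, 5 intergenic peaks lay up to 41.9 kb away, and 3 of them fell. The peak 14025 bp upstream went from 440.2 ± 12.6 to 296.2 ± 22.2 (67.3%, adjusted p = 0.00329), and that 34.6 kb upstream from 1683.0 ± 94.8 to 1202.3 ± 116.6 (71.4%, adjusted p = 0.00147). The one 22.1 kb upstream went from 1692.5 ± 132.5 to 1305.3 ± 84.4 (77.1%, adjusted p = 0.00838) and lost its call without wildtype library 2 (0.0576) and without library 6 (0.0508).

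Between these Gzmb peaks, the one 25.9 kb upstream (56906506 to 56907530) held 307.2, 321.8 and 257.9 in wildtype libraries, against 335.5, 368.4 and 334.9 in Rroid-deficient ones. All 3 Rroid-deficient values were the higher ones, but the peak had no call by itself (log2 fold change 0.23, SE 0.14, adjusted p = 0.240). Set against the other Gzmb peaks it stood 0.77 higher on the log2 scale (SE 0.12, adjusted p = 0.00129), with any single library left out as well. The start-site peak stood lower than the others (-0.49, SE 0.13, adjusted p = 0.0147), a call that was lost without wildtype library 2 (0.0668), wildtype library 3 (0.0597) or Rroid-deficient library 4 (0.0592). The peak 41.9 kb upstream held 235.2 ± 23.1 and 175.2 ± 27.2 without a call (adjusted p = 0.0708).

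Gzmc, the next granzyme gene of the cluster, had 2 low peaks. The intergenic one 6.3 kb upstream (56859129 to 56860488), on the Gzmb side, held 201.2, 271.4 and 245.2 in wildtype libraries, against 131.3, 152.3 and 136.6 in Rroid-deficient ones. It fell to 58.5% of wildtype (log2 fold change -0.76, SE 0.17, adjusted p = 0.00325), close to the 56.7% of the Gzmb start-site peak. The promoter peak (56853296 to 56853987) held 90.8, 113.4 and 97.7 against 69.0, 84.7 and 61.7, without overlap and without a call (adjusted p = 0.122). Its lowest library had 51 reads. Gzmb and Gzmc are related genes in 1 cluster, and how reads that map to more than 1 site were handled is not given in the sources used here, so values of single copies are uncertain.

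Cma1 lies at the other end of that cluster and had 1 peak, which was among those that fell most. This broad peak (56563113 to 56566850, 3739 bp wide, annotated as intergenic) has its centre 1483 bp upstream of the Cma1 start and covers the start. It held 2703.4, 2906.0 and 2405.7 in wildtype libraries, against 1147.1, 1533.6 and 1390.4 in Rroid-deficient ones, with no overlap. It fell to 50.8% (log2 fold change -0.98, SE 0.11, adjusted p = 5.02e-06). Cma1 is a gene of mast cells, so mast cell and basophil markers were looked at: Cpa3, Fcer1a and Ms4a2 had no peak, and the Mcpt8 promoter held 46.9 to 58.8 in wildtype and 70.4 to 78.6 in Rroid-deficient libraries, without a call. The part of mast cells in the Cma1 peak was not tested.

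Gzmm was the granzyme gene whose promoter rose. The promoter peak (chromosome 10, 79151251 to 79152364, centred 42 bp from the start) held 566.3, 748.6 and 698.4 in wildtype libraries, against 1067.5, 1404.1 and 1080.9 in Rroid-deficient ones. Every Rroid-deficient value lay above every wildtype value, and the peak rose 1.76-fold (log2 fold change 0.82, SE 0.13, adjusted p = 1.79e-04). A taller peak in the first intron, 2.6 kb downstream (79153462 to 79155282), held 1707.0, 1971.8 and 1723.0 against 1656.3, 1809.6 and 1796.6, with overlapping groups (adjusted p = 0.814). The small peak at the end of the gene, 6.4 kb downstream, held 142.9 ± 8.9 and 144.5 ± 9.3 (adjusted p = 0.960). The promoter moved apart from these others of its gene (log2 difference 0.83, SE 0.14, adjusted p = 0.00150), with any single library left out as well. The intronic peak stood lower in the same test (-0.45, adjusted p = 0.0127), although not without wildtype library 2 (0.0632). Its reference there includes the promoter that rose, so this call is no separate change of the intronic peak. Of the promoter peaks of the table, 9.94% rose and 8.80% fell. Among the 5 members annotated as promoter, Gzmm rose, Gzma and Prf1 fell, and Gzmc and Gzmk had no call.

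**Figure D4:**
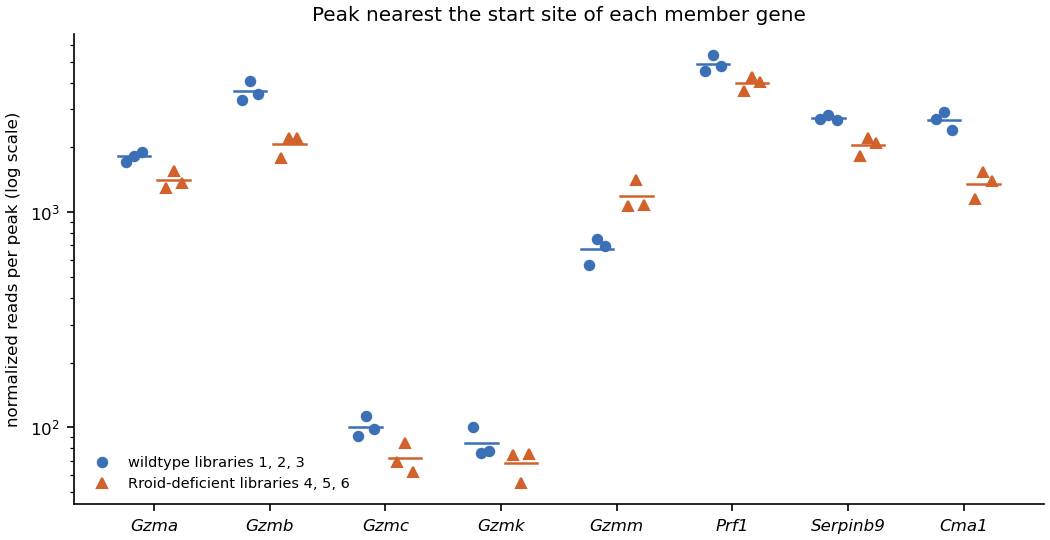
Normalized reads (log scale) in each library at the peak nearest the start site of the 8 genes, with circles for wildtype, triangles for Rroid-deficient libraries and a line at each mean. Groups do not overlap at any of the 8 peaks, and Gzmm is the gene with its triangles above its circles. Over all peaks, all Rroid-deficient libraries lay below all wildtype ones at 20.1% and above them at 20.0%. The Gzmc and Gzmk peaks had no call (limma, adjusted p = 0.122 and 0.377).

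Serpinb9, the inhibitor gene, fell at 2 of its 3 peaks by nearly the same proportion. The peak over its start and first exon (chromosome 13, 33095220 to 33097833) held 2720.3, 2827.1 and 2682.1 in wildtype libraries, against 1814.1, 2215.1 and 2092.8 in Rroid-deficient ones. It fell to 74.4% of wildtype (log2 fold change -0.43, SE 0.09, adjusted p = 0.00196). The intergenic peak 10.9 kb upstream (33084829 to 33086166) went from 2183.4, 2535.5 and 2509.3 to 1678.9, 1853.4 and 1815.9, which is 74.0% of wildtype (log2 fold change -0.43, SE 0.09, adjusted p = 0.00197). Neither peak had overlapping groups. The peak between them, 3.0 kb upstream, held 747.7 ± 10.4 and 798.5 ± 71.3 and had no call (adjusted p = 0.574), and it stood higher than the other 2 (log2 difference 0.52, SE 0.11, adjusted p = 0.00653), with any single library left out as well.

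Summed over all its peaks, each gene gave 1 value per library, tested over all 16386 genes with peaks in reach. By this test 9.64% of genes were lower and 10.9% higher. Of the 8 members 5 were lower. Gzma went from 8194.7, 8046.0 and 7849.1 to 4759.4, 5626.9 and 5395.8, which is 65.5% (log2 fold change -0.61, SE 0.08, adjusted p = 6.24e-05), and Gzmb from 7636.4, 8714.8 and 7625.5 to 4949.1, 5815.4 and 5407.9, which is 67.5% (-0.57, SE 0.08, adjusted p = 2.08e-04). Cma1, with 1 peak, went to 50.8% (adjusted p = 3.09e-05), Gzmc to 62.3% (adjusted p = 0.0101, and 0.0584 without wildtype library 2) and Serpinb9 to 78.3% (adjusted p = 0.00467). The other 3 had no call: Prf1 at 86.7% (12702.6 ± 1034.0 and 11009.1 ± 724.5, log2 fold change -0.21, adjusted p = 0.0692), Gzmk at 87.2% (329.2 ± 60.6 and 287.2 ± 45.5, adjusted p = 0.459) and Gzmm at 117.9% (2614.6 ± 220.6 and 3082.8 ± 259.3, adjusted p = 0.0745). The call at Prf1 came about without wildtype library 1 (0.0448) or Rroid-deficient library 5 (0.0325), and at Gzmm without wildtype library 2 (0.0484) or with scaling to total reads in peaks (0.0121). When the log2 values of a gene's peaks were averaged in place of summing, Serpinb9 missed the threshold (0.0558) and the log2 fold change of Prf1 was -0.03.

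Whether 2 genes changed by different amounts was asked for 3 pairs, with the log2 ratio of their sums in each library. The ratio of Prf1 to Serpinb9 was 1.07, 1.18 and 1.06 in the wildtype group, against 1.27, 1.25 and 1.24 in Rroid-deficient cells, a difference of 0.15 (exact permutation test, two-sided, p = 0.10, the smallest that 3 against 3 allows, 0.30 adjusted over the 3 pairs). For Gzma over Gzmk the ratio went from 4.62 ± 0.24 to 4.20 ± 0.35 (difference -0.42, exact p = 0.20, adjusted 0.30). Gzmb over Gzmc went from 4.56 ± 0.13 to 4.67 ± 0.09 (difference 0.11, exact p = 0.30, adjusted 0.30). With 3 against 3 libraries this permutation test cannot pass 0.05, so it shows neither a different nor an equal response of the genes in a pair.

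Other genes of the granule pathway were counted over whole lists, of which the called peaks with the smallest p are named. Granzyme processing and granule storage genes had 9 falling and 0 rising peaks of 35 at 10 genes, with a median log2 fold change of -0.20. That is 25.7% falling, against 12.1% of all peaks and 17.7% of the upper part by mean value, where 22 of the 35 lie. Among them a distal peak of Ctsc, which encodes the protease that activates granzymes, fell to 44.9% (147.1 ± 30.9 to 66.0 ± 25.2, adjusted p = 0.00377). An intronic peak of Srgn, the proteoglycan that holds granzymes in the granule, fell to 82.6% (adjusted p = 0.0302), and peaks upstream of M6pr and Gnptab, which serve the mannose 6-phosphate sorting route, fell to 77.3% and 69.5% (adjusted p = 0.00498 and 0.0203).

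Other clade B serpins had 9 falling and 0 rising peaks of 24 at 6 genes (median -0.27), which is 37.5% falling against 12.1% of all peaks. They share the chromosome 13 cluster of Serpinb9, and their peaks included an intergenic one upstream of Serpinb1b (703.2 ± 40.3 to 433.3 ± 30.9, 61.6%, adjusted p = 2.79e-04) and the Serpinb6b start-site peak (81.0%, adjusted p = 0.00848). Serpinb9b and Serpinb1c fell to 65.2% and 77.0% at 1 peak each (adjusted p = 0.0210 and 0.0308). Of 12 other granzyme and mast cell protease genes of the chromosome 14 cluster, 10 had no peak within reach, Gzmf fell at its single peak (192.1 ± 11.7 to 132.7 ± 22.9, adjusted p = 0.0353) and both Mcpt8 peaks had no call. Genes of granzyme substrates and death effectors went both ways, with 4 falling and 7 rising peaks of 39 at 8 genes and a median of 0.08. These are 10.3% and 17.9%, against 12.1% and 13.8% of all peaks. Of these, a distal peak of Parp1 rose from 97.2 ± 42.5 to 323.1 ± 24.9 (adjusted p = 2.08e-05) and 1 of Bid from 27.6 ± 0.8 to 66.9 ± 3.4 (adjusted p = 0.00360). A peak assigned to Dfna5 fell to 60.9% (adjusted p = 0.00300).

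Peaks that lie within 150 kb of a member's start but are assigned to other genes numbered 99, of which 22 fell and 6 rose (median -0.10). These are 22.2% and 6.06%, against 12.1% and 13.8% of all peaks. Near Gzma and Gzmk 4 of 20 fell and 0 rose: a peak assigned to Gpx8, in a Cdc20b intron 53.4 kb from the nearest member start, went from 1143.9 ± 48.8 to 585.7 ± 34.0 (51.2%, adjusted p = 3.63e-06), and a peak assigned to Esm1, 45.8 kb away on the Gzmk side, from 423.8 ± 62.9 to 171.2 ± 5.9 (40.4%, adjusted p = 7.78e-06). Around Serpinb9 9 of 18 fell and 0 rose. Some of these are genes of the lists above (Gzmf and the serpins). Near Gzmb, Gzmc and Cma1 4 of 15 fell and 0 rose, with Cbln3, Khnyn, Sdr39u1 and Gzmf at 69.1 to 75.9% of wildtype. Around Prf1 5 of 22 fell and 2 rose, and an intronic peak of Adamts14 65.0 kb from the Prf1 start rose from 482.3 ± 18.3 to 1382.2 ± 119.9 (log2 fold change 1.51, SE 0.11, adjusted p = 3.89e-08). Near Gzmm 0 of 24 fell and 4 rose (16.7%, against 13.8% of all peaks), among them an intronic peak of Hcn2 (177.1 ± 46.1 to 297.3 ± 57.5, adjusted p = 0.00848).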

How the data were processed

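ATAC-seq marks open chromatin by the cuts of a transposase. The authors deposited 1 table of normalized signal per peak for 6 libraries, 3 per genotype, over a consensus of called peaks, with the nearest gene and its distance. Per the submitters' processing notes, bcl2fastq 2.16.0, Trimmomatic 0.32, BWA, MACS2 2.1.0, DiffBind, HOMER and R 3.1.1 were used with mm9; the normalization, read shift and handling of duplicates are not given in the sources used here. Rroid-deficient columns carry the numbers 4 to 6, which match no sample title, so they were assigned by group only, and 0 columns were left unused. Values were whole multiples of 1 step per library (100.0% within 0.01 of a read), and read numbers were taken from that step.

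From these, log2(value + 1) was fitted with limma 3.58.1 (R 4.3.3, trended variance) over all 51775 peaks, with Benjamini-Hochberg adjustment and calls under 0.05. Log2 fold changes are on that scale. Percentages of wildtype and plain fold rises are ratios of the group means of the normalized values. A filter (10 or more in 3 libraries) removed 0 peaks. Further fits used sums over a gene's peaks up to 150 kb, and a peak's log2 value minus the mean of its gene's other peaks, with adjustment over all genes or peaks. The scripts were tested on simulated data. All called member peaks and each gene's start-site peak are named, and of other lists at most 4 called peaks with the smallest p, 1 per gene; values of 2 listed genes are not reported here. Further peaks were named after their values were seen: the uncalled member peaks and the neighbouring peaks of other genes. Members and lists were chosen with earlier results of these data known. Counting errors cover counting only. Alternatives were other pseudocounts, scalings, thresholds and left-out libraries.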

Additional observations from a re-analysis of the deposited data

How the results depend on the processing

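No member peak and no gene sum changed direction together with a call under any alternative run. The 18 falling and 2 rising member peaks stayed 18 and 2 with pseudocounts of 0.5 and 5, with scaling to total reads in peaks and with cyclic loess (added after seeing the data). Over all 51775 peaks, 4944 to 6579 fell and 7124 to 8229 rose with these alternatives. At adjusted p under 0.01 the member counts were 17 and 2, where 3265 of all peaks fell and 4365 rose. Fits without the filter and with peaks up to 50 kb could not change the member counts. The filter removed 0 peaks, and the farthest member peak lay 41.9 kb from its start site. Leaving out 1 library gave 15 to 19 falling member peaks and 2 rising ones, where 4039 to 6304 of all peaks fell and 5218 to 7508 rose. Leaving out libraries 4 and 6 (added after seeing the data), which leaves 1 Rroid-deficient library, gave 7 falling peaks. Of the 20 called peaks 9 kept call and direction in all 12 alternatives run per peak, 1 of which (no filter) repeats the main fit. These 9 were Gzma 13.3, 10.1 and 6.5 kb downstream and 19.6 and 38.7 kb upstream, the Gzmb start-site peak, Cma1, and the 2 that rose. Scaling to the total moved the median of all peaks from -0.01 to 0.05 and the number of negative member peaks from 28 to 25. Among gene sums, Gzmc lost its call without wildtype library 2 (-0.58) and without libraries 4 and 6 (-0.51), and Serpinb9 without libraries 4 and 6 (-0.25) and with the mean of log2 values (-0.26). Gzmm gained a call with scaling to the total (0.30) and without wildtype library 2 (0.30), and Prf1 without wildtype library 1 (-0.25) or library 5 (-0.25). With 1 library left out, the log2 fold change ranged from -0.78 to -0.58 for Gzmc, from 0.17 to 0.30 for Gzmm and from -0.25 to -0.14 for Prf1. The cause was not tested. The planned edgeR and DESeq2 fits on read numbers were not run: these numbers are inferred from the steps of the deposited signal, and wildtype library 2 has no peak of 1 read to show its step directly. No paired analysis was possible because the Rroid-deficient columns carry no replicate number of the labels. The Gzmc and Gzmk promoters had the fewest reads of the member peaks (51 and 56 in their lowest library).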
